A study of Mus musculus with 24 samples.

Results

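A set of 9 genes that mark neuroendocrine cells or the molecular subtypes of small cell lung cancer (SCLC) were followed through p53 restoration in mouse SCLC lines. They were Neurod1, Pou2f3, Insm1, Uchl1, Ncam1, Syp, Syn1, Rest and Nfib, taken by symbol from a list of known markers, and all 9 were among the 25239 genes of the expression table. The samples were 6 lines, each grown from an individual lung tumor of mice carrying floxed Rb1 and Rbl2 (flox/flox at each), the Trp53 XTR gene-trap allele (XTR/XTR) and Rosa26 FlpO-ER, in which inhaled adenoviral CMV-Cre had removed Rb1 and Rbl2 and trapped Trp53 in an off state. The Type D lines 4711-1, 4711-18 and 4716-11 (replicates 1, 2 and 3) lose viability when p53 returns, and the Type V lines 4711-11, 4716-10 and 4716-14 (replicates 1, 2 and 3) stay viable. Every line gave 4 libraries at 72 h: vehicle (Control), cyclosporin A, a cyclophilin-binding drug (Control + CsA), 4-hydroxytamoxifen, which switches Trp53 back on (Restored), and both agents (Restored + CsA). All groups, Control included, therefore share the loss of Rb1 and Rbl2, the same alleles and growth in culture, and each group holds 3 lines.

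SCLC arises in cells with neuroendocrine features, which store peptides in dense-core granules and use many proteins of the neuronal synapse. Human tumors are sorted into subtypes by the transcription factor they express most, among them NEUROD1, a basic helix-loop-helix factor of neurons and endocrine cells, and POU2F3, the master factor of chemosensory tuft cells. REST is a zinc-finger repressor that binds the RE1 element near neuronal genes and keeps them off outside neurons. NFIB, a nuclear factor I protein, is amplified in some SCLC and has been tied to metastasis in mouse models.

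Expression was read as TPM (transcript abundance scaled for length and to the same total in every library). TPM carries no count of reads, so depth is unknown, and in bulk RNA fewer expressing cells and less RNA per cell cannot be told apart. Between 11853 and 12651 genes per library reached a TPM of 1. Trp53, the targeted gene, lay between 10.5 and 15.3 TPM in the 12 libraries without restoration and between 181 and 253 TPM in the 12 with it. Differences are given as log2(TPM + 1) from limma, a linear model fitted to all 24 libraries. A gene was called when its Benjamini-Hochberg adjusted p was under 0.05 and it moved by at least 1 log2. Of the 9 members, 7 reached a TPM of 1 in at least 3 libraries and were tested among 14104 genes.

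The members ranged from expressed in every library to nearly absent. Nfib, Rest, Ncam1 and Syn1 were at or above 1 TPM in all 24 libraries. Insm1 reached it in 18 libraries, Uchl1 in 15 and Syp in 7, whereas Neurod1 and Pou2f3 never did. Known genes of the same kinds were as uneven. Of 18 genes for neuroendocrine secretion and peptides, 11 stayed under 1 TPM in all 24 libraries and 1 was above it in all of them. Of 27 further synaptic and neuronal genes 13 stayed under 1 TPM throughout, and of 18 neural and endocrine transcription factors 13 did. Of 15 genes linked to the non-neuroendocrine state of SCLC, 14 were above 1 TPM in every library. The lists were chosen with earlier results of these data known, so the contrast between them is a description and no test. Of all 25239 genes, 14104 passed the filter of 1 TPM in at least 3 libraries. In these lists, in the order given, 6 of 18, 11 of 27, 4 of 18 and 15 of 15 genes did. The label of the samples as SCLC was checked against 10 markers, of which 5 reached 1 TPM in any library: Insm1, Uchl1, Ncam1, Syp and Syn1. The other 5 stayed under it, and 2 of them, Chga, a core granule protein, and Grp, a peptide of lung neuroendocrine cells, were listed at 0 in every library.

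**Figure D1:**
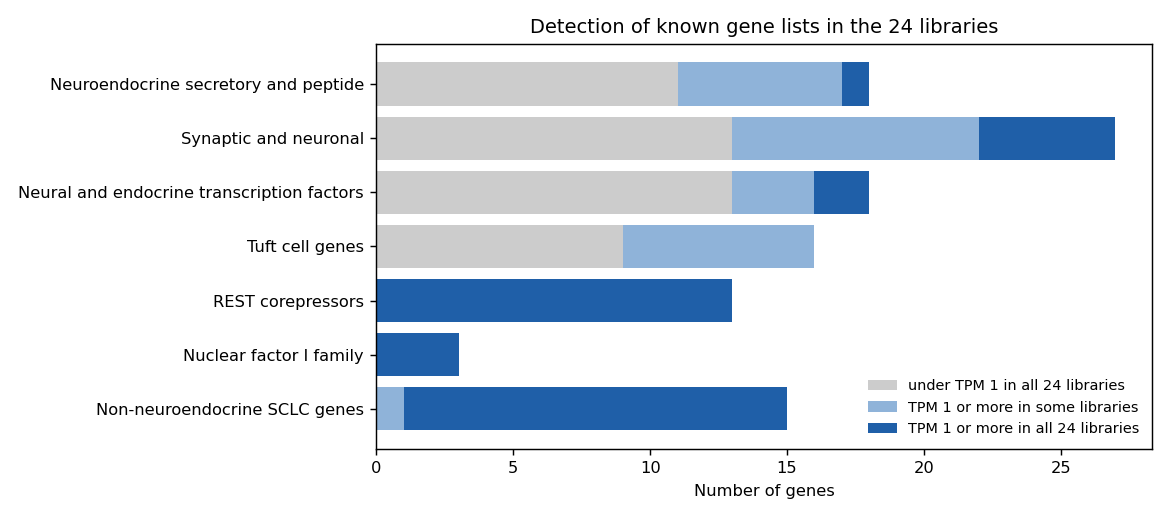
Number of genes (x axis) of each of 7 lists of known genes (y axis) that stayed under a TPM of 1 in all 24 libraries, reached it in some, or were at or above it in all. The neuroendocrine, synaptic, transcription factor and tuft cell lists are mostly grey or pale, with 11, 13, 13 and 9 genes never reaching 1 TPM, while the 13 REST corepressors and the 3 other nuclear factor I genes were above it in every library.

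Neurod1 and Pou2f3, the subtype factors, were examined first. Neurod1 (chr2:79452521-79456751, GRCm38) was listed at 0 in all 6 Control libraries and above 0 in 3 of 24 libraries. These were Type D replicate 3 in Restored + CsA (0.0896 TPM), Type V replicate 2 in Restored (0.0954) and Type V replicate 1 in Restored + CsA (0.0826). Pou2f3 (chr9:43123939-43210369) was above 0 in 6 of 24 libraries, with a highest value of 0.0821 TPM. Both were left out of the model by the filter on low values. In Control, Pou2f3 was above 0 in 1 library, Type D replicate 1 (0.0435 TPM), so levels this low allow no comparison of the types. Among 16 tuft cell genes, the lineage that Pou2f3 directs, 9 never reached 1 TPM and 7 were tested. The gene of this list that was called between types, Dclk1, a kinase found in tuft cells and in neurons, stood at 24.6 to 93.6 TPM in Type V Control and at most 0.146 TPM in Type D Control (-5.47 log2, Type D minus Type V). Dclk1 reached 1 TPM in no Type D library and passed the filter on low values only through Type V, so it had to differ, and no test is given. The median of the 7 tuft cell genes was 0.00 log2, beside -0.12 for all genes.

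**Figure D2:**
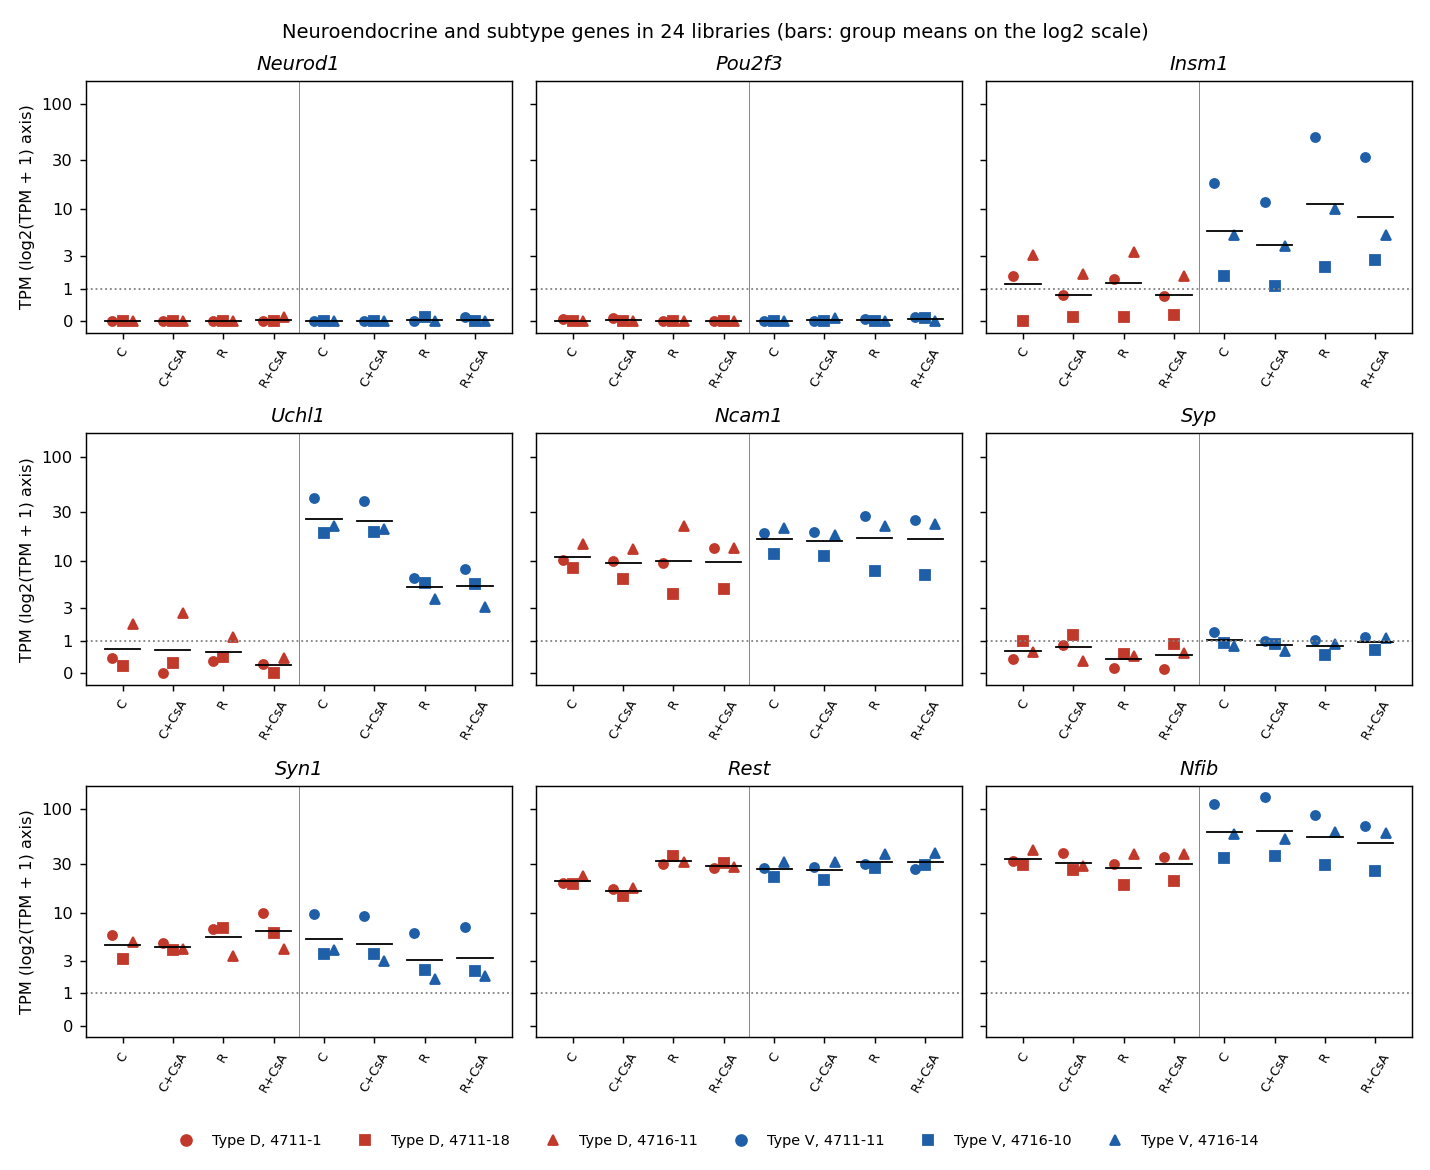
TPM of the 9 genes (y axis, log2(TPM + 1) spacing) in each of the 24 libraries, by group on the x axis (C, Control; R, Restored), with Type D in red, Type V in blue, a symbol for each line and a bar at the group mean on the log2 scale. Neurod1 and Pou2f3 lie at the floor, Uchl1 parts the types with 18.9 to 40.9 TPM in Type V Control against 0.168 to 1.88 in Type D Control, and the dotted line marks 1 TPM.

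Uchl1 (chr5:66676091-66687234), a neuronal deubiquitinase used as a neuroendocrine marker, had the largest difference between types of the 7 tested members in Control and Control + CsA. In Restored the difference of Insm1 was larger (-2.41 against -2.0 log2), without a call. In Control it stood at 40.9, 18.9 and 22.2 TPM in Type V replicates 1, 2 and 3 while the Type D replicates held 0.383, 0.168 and 1.88 TPM. All 3 Type V lines lay above all 3 Type D lines, an order that 19.5 percent of all tested genes showed. The difference was -4.01 log2 (Type D minus Type V, SE 0.465, 95% interval -4.98 to -3.03, limma adjusted p 1.05e-05). When only the compared groups were fitted, the adjusted p was 0.0137. Uchl1 was the 1 member called of 7, in a comparison in which 8.83 percent of all genes were called. With values this close to 0 in Type D, the pseudocount of 1 makes the difference smaller than the ratio of the TPM values. Uchl1 reached 1 TPM in 12 of 12 Type V libraries and in 3 of 12 Type D libraries, all of the latter from replicate 3.

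Restoration of p53 lowered Uchl1 in Type V. Its level went from 27.3 ± 11.9 TPM in Control to 5.44 ± 1.39 TPM in Restored (mean ± SD, n = 3). Replicates 1, 2 and 3 ended at 6.58, 5.85 and 3.89 TPM, each below all 3 Control values, and 16.1, 31 and 17.5 percent of the Control level was left. The change was -2.08 log2 (SE 0.465, 95% interval -3.06 to -1.11, adjusted p 0.0062), where 5.29 percent of all genes were called, and 25.3 percent were lower in all 3 lines. The call was lost without Type V replicate 1 (-1.89, adjusted p 0.0559) or replicate 3 (-2.0, 0.0572), with a pseudocount of 0.1 (-2.26, 0.149) and when only Control and Restored of Type V were fitted (0.0552). With the cell line as a block, which pairs the libraries of a line, the adjusted p was 1.19e-05.

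The fall in Uchl1 was also seen under CsA. In Type V it went from 26 ± 10.6 TPM in Control + CsA to 5.73 ± 2.6 TPM in Restored + CsA (-2.02 log2, SE 0.465, adjusted p 0.0089), with 4.61 percent of all genes called and 24.6 percent lower in all 3 lines. The libraries of Restored + CsA held 8.33, 5.74 and 3.12 TPM, again below all those of Control + CsA. Without Type V replicate 3 the change was -1.83 and not called (adjusted p 0.104). CsA itself left Uchl1 nearly where it was in Type V, with 38.3, 19.4 and 20.5 TPM in Control + CsA (-0.06 log2, adjusted p 1).

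In Type D Uchl1 was low throughout. Restored libraries held 0.291, 0.42 and 1.17 TPM, within the range of Control, and the change was -0.07 log2 (95% interval -1.05 to 0.90, adjusted p 0.981). Under CsA the Type D change was -0.47 log2 (adjusted p 0.647), and replicate 3, the line with Uchl1 above 1 TPM, went from 2.66 to 0.393 TPM, with 14.8 percent left. The response of Type D minus that of Type V was 2.01 log2 (95% interval 0.63 to 3.39). This difference did not pass without the block (adjusted p 0.954, with 0.0284 percent of genes called) and passed with it (0.00626). With the block, 160 of 14104 genes were called higher in this difference and 184 lower. After restoration Uchl1 was still lower in Type D (-2.0 log2 against Type V, SE 0.465, adjusted p 0.00712, with 9.44 percent of genes called), although not without Type D replicate 1 (-1.85, adjusted p 0.0509). In Restored + CsA the difference was -2.41 (adjusted p 0.00193, with 7.82 percent of genes called) and in Control + CsA -3.96 (1.13e-05, with 9.88 percent).

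Fibroblast markers also differed in level between the types. The summed TPM of 7 such markers (Pdgfra, Pdgfrb, Col1a1, Col1a2, Dcn, Lum and Thy1) was 75.3 to 563 in the Type V libraries and 0.304 to 1.93 in the Type D libraries. In Type V replicates 1, 2 and 3 it was 192, 494 and 353 in Control and 176, 193 and 88.7 in Restored. Under CsA it was 187, 563 and 331 in Control + CsA and 93.4, 129 and 75.3 in Restored + CsA. Of the 4 markers tested, 1, Col1a2, was called lower on restoration in Type V, where 5.29 percent of all genes were called and 1.9 percent called lower. The mean of Dcn in Type V was 38.2 TPM in Control and 42.6 in Restored. Of these markers, Thy1 was listed at 0 in all Type V libraries and Lum reached at most 0.844 TPM there, while Col1a2 reached 194 TPM. Epithelial markers (Epcam, Cdh1, Krt8, Krt18 and Krt19) summed to 6639.8 to 16618 TPM in Type D and 689 to 2325 in Type V. Epcam itself held 0.218 to 4.57 TPM in Type D and 0.124 to 2.19 in Type V, and Krt8 ran from 0.44 to 567 TPM in Type V. The part of these cells or programs in the Uchl1 values was not tested. The 3 genes whose levels were most like those of Uchl1 across the 24 libraries, which share lines, were Mme (Pearson r 0.957), Mgp (0.956) and Tenm3 (0.941).

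The stretch around the Uchl1 start site is shown because this gene carried the difference between types. It covers 250 bases before to 50 bases after the start in the RefSeq annotation (GRCm38.p6, chr5:66675871-66676170, plus strand), all in lower case since the motif searched was not in it.
Uchl1 promoter: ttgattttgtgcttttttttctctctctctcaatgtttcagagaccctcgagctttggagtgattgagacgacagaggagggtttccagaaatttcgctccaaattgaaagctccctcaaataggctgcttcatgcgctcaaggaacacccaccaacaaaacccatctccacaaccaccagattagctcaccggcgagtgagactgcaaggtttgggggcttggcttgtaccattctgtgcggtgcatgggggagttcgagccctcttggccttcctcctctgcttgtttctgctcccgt

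The motif was the p53 half-site, a degenerate pattern of 10 letters that reads the same on both strands, given here by name. It was in 8.36 percent of all 32851 promoter stretches of this length and in none of the 4 members with a stretch on file (Neurod1, Uchl1, Syp and Syn1). Such a search describes letters in a window and no binding.

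**Figure D3:**
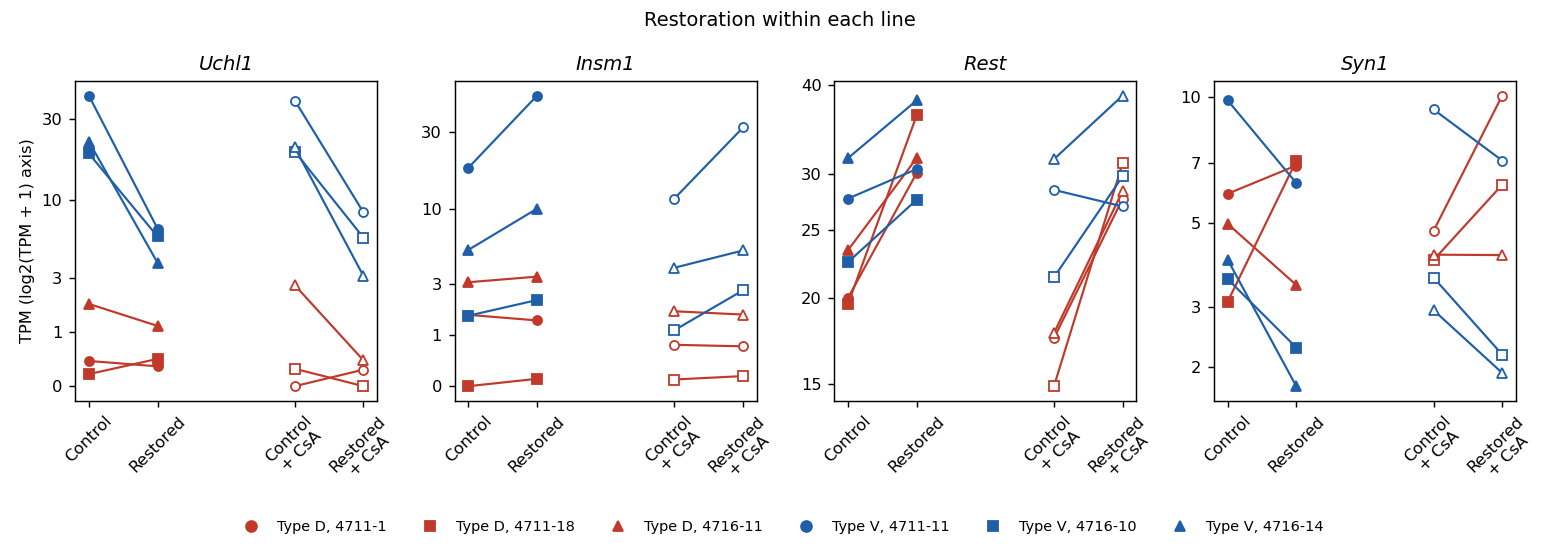
TPM (y axis, log2(TPM + 1) spacing, with its own range in each panel) of Uchl1, Insm1, Rest and Syn1 before and after restoration, without CsA (filled symbols) and with CsA (open symbols). Each line joins the libraries of a cell line, Type D in red and Type V in blue. Uchl1 falls in all 3 Type V lines (to 6.58, 5.85 and 3.89 TPM without CsA) and Rest is higher in all 6 lines without CsA.

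Insm1 (chr2:146221921-146225020), a zinc-finger factor of neuroendocrine differentiation, varied more between lines than between treatments. In Type V Control it stood at 18.1, 1.59 and 5.3 TPM in replicates 1, 2 and 3, an 11.4-fold span. In Type D Control the values were 1.62, 0 and 3.07 TPM, so the ranges of the types overlapped. The difference of -1.62 log2 (Type D minus Type V) had a wide interval (-3.68 to 0.44) and was not called (adjusted p 0.304). The order of the 3 lines was the same in all 4 treatments in each type.

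After restoration Insm1 was at 49.6, 2.2 and 9.99 TPM in the Type V lines, each above its own Control. The mean change was 0.84 log2 (95% interval -1.22 to 2.90, adjusted p 0.721), and under CsA 3 of 3 Type V lines were again higher, at 31.9, 2.65 and 5.25 TPM. Of all genes, 32.4 percent were higher in all 3 Type V lines without CsA and 30.2 percent with it. Taking the line as a block gave adjusted p values of 0.0106 and 0.0124, with changes below 1 log2, so the gene was called in neither fit. In Type D the change was 0.05 log2, and its sign depended on the scaling (-0.09 after quantile normalization). The gap between types in Restored was -2.41 log2 (adjusted p 0.108) and was called only without Type V replicate 2 (-3.37, 0.0146), as it was in Restored + CsA (-3.05, 0.0263). The genes most like Insm1 over the 24 libraries, which share lines, were Glg1 (r 0.944), Gab1 (0.941) and Zfp821 (0.937).

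Ncam1 (chr9:49502136-49798925), a neural cell adhesion molecule and clinical SCLC marker, was present in every library, from 4.46 to 27.3 TPM. In Control it was 11.1 ± 3.31 TPM in Type D and 17.1 ± 4.96 TPM in Type V, with overlapping ranges (8.46 to 14.8 and 11.6 to 21.1 TPM). The difference was -0.57 log2 (95% interval -1.71 to 0.57, adjusted p 0.536). Restoration moved it in no shared direction. In Type D it was -0.11 log2 (adjusted p 0.969), with lines at 9.53, 4.46 and 22.1 TPM. In Type V it was 0.02 (0.997), with lines at 27.3, 7.83 and 22.1 TPM. Of the 6 lines, 3 were higher and 3 lower, and both signs turn with the setting, Type D to 0.23 without Type D replicate 2 and Type V to -0.09 after quantile normalization.

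The synaptic vesicle genes Syp and Syn1 were low. Syp (chrX:7638471-7653256), which encodes synaptophysin, a membrane protein of vesicles and a standard diagnostic marker, ran from 0.109 to 1.41 TPM and reached 1 TPM in 2 of 12 Type D and 5 of 12 Type V libraries. In Control the values were 0.352, 1.01 and 0.576 TPM in Type D and 1.41, 0.932 and 0.801 TPM in Type V. The types overlapped and differed by -0.32 log2 (adjusted p 0.445). Restored minus Control was -0.26 log2 for Syp in Type D (adjusted p 0.607) and -0.19 in Type V (0.772), and neither was called.

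Syn1 (chrX:20860511-20921004), which encodes synapsin I, a protein that tethers vesicles, was above 1 TPM in all libraries (1.73 to 10.1). Control libraries held 5.91, 3.1 and 4.98 TPM in Type D and 9.85, 3.58 and 4.03 TPM in Type V, and the difference of -0.19 log2 (95% interval -1.19 to 0.82) turned to 0.20 without Type V replicate 1. After restoration the Type V lines were at 6.28, 2.29 and 1.73 TPM, each below its Control (-0.64 log2, adjusted p 0.5, and 0.0193 with the line as a block). Being lower in all 3 Type V lines was shared by 25.3 percent of all genes. The Type D lines were at 6.92, 7.1 and 3.45 TPM, with replicates 1 and 2 higher and replicate 3 lower (0.25 log2, adjusted p 0.839). The responses differed between types by 0.90 log2 (95% interval -0.53 to 2.32, adjusted p 1, and 0.0811 with the block). Between types, Syn1 was called only without Type V replicate 1, higher in Type D by 1.14 log2 in Restored (adjusted p 0.0359) and by 1.29 in Restored + CsA (0.0215).

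Rest (chr5:77265491-77286432) was higher with p53 in Type D, by less than the size set for a call. Control libraries held 20, 19.6 and 23.4 TPM and Restored libraries 30.1, 36.3 and 31.6 TPM, each above all 3 Control values (39.2 percent of genes were higher in all 3 Type D lines). The change was 0.61 log2 (SE 0.176, 95% interval 0.24 to 0.98), a 1.53-fold difference with an adjusted p of 0.0261, where 12.9 percent of all genes were under 0.05 on p alone. The adjusted p was above 0.05 without Type D replicate 1, 2 or 3 (0.148, 0.272 and 0.101), after quantile normalization (0.0862), with median-ratio scaling (0.0543) and when only the compared groups were fitted (0.0534), and it was 0.000278 with the line as a block. Under CsA it went from 17.5, 14.9 and 17.8 TPM to 27.7, 31.1 and 28.4 TPM, a difference of 0.76 log2 (SE 0.176, adjusted p 0.00817, where 8.89 percent of genes were under 0.05), again with an adjusted p above 0.05 without Type D replicate 1, 2 or 3 (0.0638, 0.146 and 0.0808). In Type V Rest went from 27.7, 22.5 and 31.6 TPM to 30.5, 27.6 and 38.1 TPM (0.23 log2, 95% interval -0.14 to 0.60, adjusted p 0.522). Over all 6 lines it was higher in 6 (mean 0.42 log2, SD 0.259), as were 23.8 percent of all genes. Under CsA it was higher in 5 of 6 lines. The responses of the types were not shown to differ (0.39 log2, 95% interval -0.14 to 0.91, adjusted p 1, and 0.149 with the block).

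Before restoration the mean of Rest was 21 ± 2.11 TPM in Type D and 27.3 ± 4.56 TPM in Type V (SD, n = 3). The Control difference was -0.35 log2 (adjusted p 0.203), with Type D replicate 3 (23.4 TPM) above Type V replicate 2 (22.5). In Control + CsA the Type D lines all lay below the Type V lines (28.5, 21.4 and 31.5 TPM), as did 20 percent of genes, and the difference was -0.65 log2 (SE 0.176, adjusted p 0.0168, with 15 percent of genes under 0.05), below the size for a call. Its adjusted p was 0.136 when only the compared groups were fitted and 0.0506 to 0.0748 without Type D replicate 1, 2 or 3 or Type V replicate 1 or 3. In Restored the types were level (0.03 log2, 95% interval -0.34 to 0.40). The summed TPM of 6 immune markers went from 9.23 to 11.3 in Type D Control to 32.9 to 58.5 in Restored. Of its 4 markers tested, 2 were called higher, Cd68, which encodes a lysosomal protein (1.95 log2, adjusted p 0.000134), and Cd79a, where 6.93 percent of all genes were called. Cd79a held at most 0.328 TPM in Type D Control and 0.959 to 4.65 TPM in Type D Restored. It reached 1 TPM in no library of either Control group, so its call supports nothing. Ptprc stayed at or below 0.154 TPM and Cd3e at 0. The part of these markers in the Rest values was not tested. Trim41 (r 0.913), Sertad2 (0.899) and Fxr2 (0.892) were the genes most like Rest over the 24 libraries, which share lines. All 13 REST corepressors tested, among them Rcor1, Hdac1 and Kdm1a, were above 1 TPM in every library. Restoration called 0 of them in either type, where 6.93 percent of all genes were called in Type D and 5.29 percent in Type V. Of the 13, 1, Sin3b, was called lower in Type D Control (-1.02 log2, adjusted p 0.00615). In that comparison 8.83 percent of all genes were called. The median of the corepressors between types was -0.14 log2, beside -0.12 for all genes.

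Nfib (chr4:82290173-82705750) had the highest mean TPM of the members in every group but Type D Restored, where Rest averaged 32.7 and Nfib 29 TPM. Type V Control libraries held 111, 34.4 and 58 TPM and Type D Control libraries 32, 29.5 and 41.2 TPM, so the types overlapped through Type V replicate 2. The difference was -0.82 log2 (95% interval -1.85 to 0.21, adjusted p 0.3). It was called without Type V replicate 2, at -1.22 in Control (0.0424), -1.39 in Control + CsA (0.0212) and -1.36 in Restored (0.0244). The order of the Type V lines was the same in all 4 treatments, with a 3.22-fold span in Control. Restored libraries held 18.8 to 37.8 TPM of Nfib in Type D (-0.27 log2, adjusted p 0.829) and 29.6 to 87 TPM in Type V (-0.16, 0.933), and neither was called. Of the other nuclear factor I genes, Nfia was higher in Type D Control, at 9.63 ± 0.947 against 2.53 ± 1.52 TPM (1.67 log2, SE 0.266, adjusted p 0.000308), and Nfic and Nfix were not called. In this comparison 8.83 percent of all genes were called. Nfib levels resembled those of Prkd3 (r 0.949), Upf3a (0.947) and Crybg3 (0.945), and among members Insm1 (0.862) and Ncam1 (0.834), over 24 libraries from 6 lines.

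**Figure D4:**
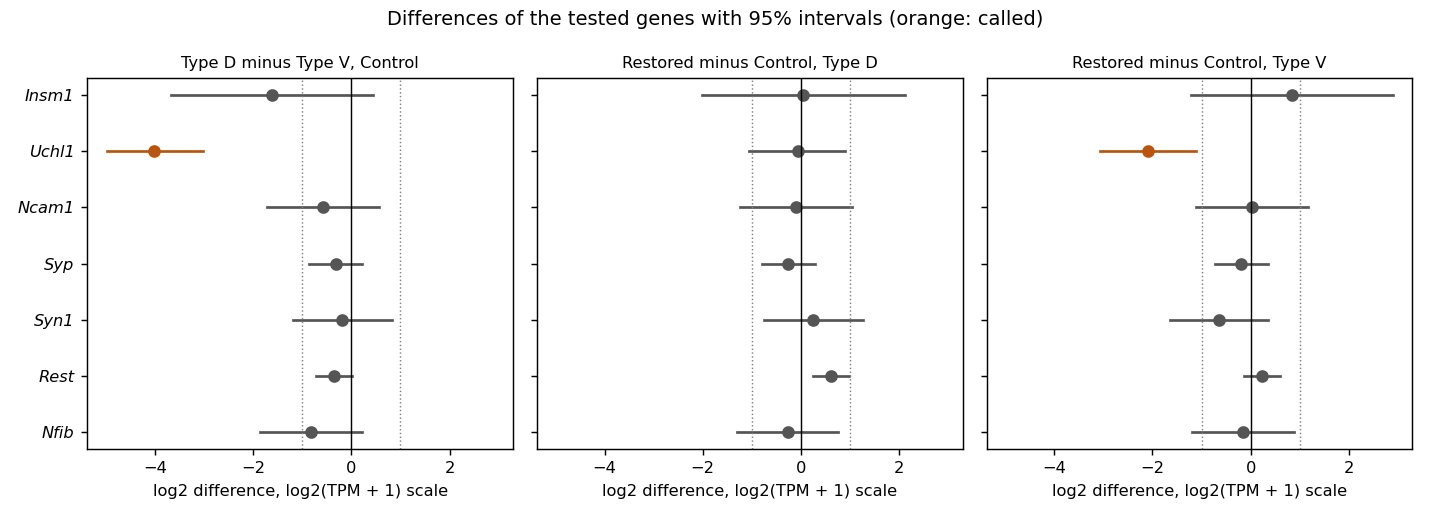
Differences of the 7 tested genes on the log2(TPM + 1) scale (x axis) with 95% intervals, for the types in Control and for restoration in each type, with dotted lines at the size needed for a call and called genes in orange. Uchl1 is the called gene between types (-4.01) and in Type V (-2.08), and Rest in Type D (0.61) has an interval above 0.

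In Control the 7 tested members all had lower values in Type D than in Type V, with a median of -0.57 log2. Of all genes, 60 percent had lower values, with a median of -0.12. The other genes of neuroendocrine cells were read against the 8.83 percent of all genes called between types in Control. Of 6 secretory and peptide genes tested, Eno2, a neuronal enolase, was the 1 called between types in Control, at 0.119 to 0.611 TPM in Type D and 2.38 to 9.68 in Type V (-2.43 log2). Under 1 TPM in all Type D Control libraries, it passed the filter through Type V. No test is therefore given for Eno2, and its call supports nothing. Of 11 synaptic and neuronal genes tested, Cplx2 (-2.02 log2) and L1cam (-1.68) were called lower in Type D and Unc13a (1.31) higher. Each reached 1 TPM in 1 type only and passed the filter through it, so these 3 had to differ and their calls support nothing. Cplx2 encodes a complexin of synaptic fusion, L1cam a neural adhesion protein and Unc13a a vesicle priming factor. Of 4 neural and endocrine transcription factors tested, Onecut2 was higher in Type D (2.70 log2, SE 0.72, adjusted p 0.0171), at 31.3 ± 9.07 against 5.92 ± 7.26 TPM. These lists had medians of -0.63, -0.52 and 0.53 log2.

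Restoration called 0 of the secretory and 0 of the synaptic genes in either type, where 6.93 percent of all genes were called in Type D and 5.29 percent in Type V. Under CsA these shares were 5.41 and 4.61 percent, and 0 genes of either list were called. Of the 4 transcription factors Hes6, a helix-loop-helix factor of neural and neuroendocrine cells, rose in Type D (1.15 log2, adjusted p 0.0138) and in Type V (2.04, 0.000145). Of the 15 non-neuroendocrine genes, Epha2 rose in Type D (1.04 log2, adjusted p 0.0154), and 0 were called between types in Control, where 8.83 percent of all genes were. CsA alone called 0 members, as it did 0 of all 14104 genes, in each type (by limma, 114 genes had an unadjusted p under 0.05 in Type D, and for Type V there were 54). CsA added to restored p53 also called 0 members, with 0.0142 percent of all genes called in Type D and 0 in Type V. These fits leave out the pairing by line, so their p-values for CsA can be too large. With the line as a block, 0 members were called in either comparison. CsA alone then called 2 genes higher in Type D and 0 in Type V. CsA with restored p53 called 18 genes lower in Type D and 0 in Type V. Of the members tested, Rest was lower with CsA in all 3 Type D lines, both before (-0.31 log2, adjusted p 1, and 0.535 with the block) and after restoration (-0.16, 1, and 0.591 with the block). Being lower with CsA in all 3 Type D lines was shared by 20.4 percent of all genes before restoration and 18.6 percent after.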

How the data were processed

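RNA from 24 cultures was made into stranded mRNA libraries and sequenced single-end by the authors, who deposited a table of TPM per gene and library, used here as deposited. The study names Kallisto or HISAT2 for alignment without saying which lies behind the table, and the submitters' notes list HISAT2 with mm10 and GRCm39, so the build is uncertain. Each column sums to 1000000, hence levels are relative and depth is unknown. Groups came from the sample titles and the line types.

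Values were analysed as log2(TPM + 1) with limma 3.58.1 in R 4.3.3 (1 coefficient per group, eBayes with trend, two-sided, no block), on the 14104 genes that reached 1 TPM in 3 or more libraries, adjusted by Benjamini-Hochberg within each of 13 comparisons. Libraries of a line are paired. After removing group means they correlated with r of 0.599 to 0.929 (36 pairs), against -0.675 to 0.0438 for other lines, and a fit with line as a block was an alternative. Nothing in the labels says that a line was cultured more than once. The p-values of the main fit measure the spread between lines, those of the block fit the spread within lines. The main fit takes libraries of a line as independent, so its p-values between types can be too small. Those for comparisons within lines, of restoration and of CsA, can be too large. Scripts were tested on simulated data. The members and lists were chosen with earlier results of these data known. Named genes were the members, Trp53, the up to 3 largest called genes of each list in 3 comparisons (Type D against Type V in Control, restoration in each type), and the 3 genes most correlated with each member; markers were read as summed TPM. Python 3.11.15 and matplotlib 3.10.9 were used for counts and figures. Positions are from GENCODE M21 and promoters from RefSeq, both GRCm38.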

Additional observations from a re-analysis of the deposited data

Results flagged for a closer look

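Uchl1 was singled out because its response to restoration differed between types in the fit with cell line as a block (2.01 log2, Type D minus Type V, limma adjusted p 0.00626). Without the block the same difference had an adjusted p of 0.954. The fit with the block called 160 of 14104 genes higher in this difference and 184 lower. Restored minus Control was between -2.47 and -1.54 log2 in the Type V lines and between -0.41 and 0.28 in the Type D lines, which started near 0 TPM.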

How the results depend on the processing

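Over 14 alternatives, 163 of 178 counts of called members were within 1.5 times the value reported. Many of these counts were 0 in the main fit and stayed at 0, as for CsA alone, so they say little about stability. Of 456 followed differences, 428 kept their sign and their side of the threshold. With 1 line left out in turn, the number of members called between types ranged from 1 to 2 in Control, 1 to 2 in Control + CsA, 0 to 3 in Restored and 1 to 2 in Restored + CsA, and that for restoration in Type V from 0 to 1 without and with CsA. With a pseudocount of 0.1, and with only the compared groups fitted, 0 members were called for restoration in Type V, without and with CsA (Uchl1 under CsA -2.20, adjusted p 0.186, and -2.02, adjusted p 0.0933). With cell line as a replicate block, 1 member (Uchl1) was called for the difference in responses between types, and the block changed no other call of a member. Of all genes, the block fit called 160 higher and 184 lower in that difference. Losses of p under 0.05 for Rest, which was called in no setting, stand beside its values. The cause of these changes was not tested.

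Small differences turned sign. With 1 line left out, Syn1 between types in Control ranged from -0.42 to 0.20 (0.03 without Type D replicate 2). For restoration in Type D the ranges were -0.00 to 0.13 for Insm1, -0.25 to 0.09 for Uchl1, -0.44 to 0.23 for Ncam1 and -0.11 to 0.59 for Syn1, and in Type V -0.23 to 0.29 for Ncam1. Insm1 in Type D was -0.09 after quantile normalization and -0.00 with median-ratio scaling, Ncam1 in Type V -0.09 and -0.01, and Uchl1 in Type D was 0.00 with a pseudocount of 0.1. Depth is unknown, so no counting error can be given for members near 0 TPM.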
